A study of Mus musculus with 6 samples.

Results

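The interferon signalling, antigen presentation and immunoproteasome genes were 49 listed genes, matched by symbol to the table of expression values, which held 14327 genes. Of the 49, 47 had a row, and the other 2, Ifitm1 and Rnf213, were not analysed here. The list is a choice of pathway genes, made with earlier results of these data known. Of these, Ifitm3 and Bst2 were selected on their FPKM values, for being low in the cKO columns. Their values below are a description and carry no test. The 47 genes fell into 13 receptors, kinases, STATs and interferon regulatory factors (IRFs), 23 antiviral effectors, 6 genes of MHC class I and peptide loading, and 5 genes of the immunoproteasome.

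The samples were 6 RNA-seq libraries of neurospheres, which are suspension cultures rich in neural stem cells, from mouse hippocampus at postnatal day 0, grown in DMEM-F12 with B27, N2, EGF and bFGF. There were 3 libraries labelled cKO, from mice with a conditional knockout of Slc22a17, which encodes a receptor for the iron-carrying protein lipocalin 2, and 3 from wild-type (WT) mice. The labels used here give no Cre driver, deleted exon or sex, nor whether each library was a separate animal or culture. The p-values therefore reflect the spread between libraries only, and that spread may be technical. Values are FPKM, fragments per kilobase of transcript scaled to the mapped fragments of a library, which carry no read totals and can be compared between genes because they are per length. Tests used limma on log2(FPKM + 1) for 11596 genes whose mean reached 1 FPKM, with Benjamini-Hochberg adjustment over all of them and a threshold of 0.05.

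Slc22a17 itself measured 164, 166 and 187 FPKM in the cKO libraries and 181, 169 and 204 FPKM in WT (adjusted p = 0.707 in limma; exact two-sided permutation p = 0.5, with 0.1 the smallest possible), so the target transcript was not lost and every direction below is one between labels, with cKO naming the label. Ddx3y and Eif2s3y, transcripts of the Y chromosome, summed to 43.8 to 51.2 FPKM in cKO libraries, and to 0.10, 0.07 and 25.9 FPKM in WT replicates 1 to 3, and this difference cannot be told apart from the genotype. Neural stem and radial glia markers were high in all libraries, with sums of 3126 to 3398 FPKM in cKO and 3402 to 3597 FPKM in WT. All 17 microglia and macrophage markers were measured, at low levels, with 8 of them under a mean of 1 FPKM. Ptprc (CD45) was at most 0.19 FPKM. The deposited values hold no 0 for any gene, so none of these markers could be at 0. Their sum was 16.8, 38.7 and 38.4 FPKM in cKO replicates 1 to 3 and 29.4, 32.6 and 27.4 FPKM in WT, so cKO replicate 1 was the lowest of the 6 libraries. Sums for other markers were 3578 to 3755 FPKM in cKO and 2898 to 3998 FPKM in WT for astrocytes, 1086 to 1369 and 1091 to 1575 FPKM for oligodendrocyte precursors, 22.9 to 29.4 and 27.6 to 30.1 FPKM for choroid plexus and ependyma, 6.77 to 7.25 and 5.19 to 5.88 FPKM for neurons, 3.56 to 5.28 and 3.66 to 4.41 FPKM for pericytes and fibroblasts, 0.62 to 0.96 and 1.00 to 1.62 FPKM for endothelium, and 0.30 to 0.75 and 0.49 to 0.80 FPKM for T, B and NK cells, always cKO before WT. Some of these sums rest mostly on 1 gene. Foxj1 (mean 27.5 FPKM) did so for choroid plexus and ependyma, Tubb3 (4.58 FPKM) for neurons and Pdgfrb (3.98 FPKM) for pericytes and fibroblasts. Only 3 of 5 choroid plexus and ependyma markers and 5 of 9 pericyte and fibroblast markers had a row. For endothelium it was 3 of 8, and for T, B and NK cells 3 of 7. In bulk samples like these, fewer cells of a type and less RNA per cell cannot be told apart. The part of these markers, or of the Y-linked transcripts, in the results below was not tested. Values without a library, or with the Y-linked share fitted, are given as a description. That share, relative to the cKO mean, was 90.3% to 105.6% in cKO and 0.21%, 0.14% and 53.4% in WT replicates 1 to 3. It followed the labels closely, so fits with it rest largely on WT replicate 3 and cannot separate it from the label.

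Interferons are secreted antiviral proteins. Type I interferons bind the receptor of Ifnar1 and Ifnar2, and interferon gamma binds that of Ifngr1 and Ifngr2. The receptor-bound kinases Jak1, Jak2 and Tyk2 then phosphorylate STAT proteins, which enter the nucleus, STAT2 in a complex with IRF9, and switch on genes that carry an interferon-stimulated response element (ISRE) or a gamma-activated site (GAS). The products include proteins that block virus entry, release or translation, and the machinery that cuts proteins into peptides and shows them on MHC class I. Neural stem cells are known to express a part of these genes without interferon treatment, the IFITM proteins among them.

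Promoters of some of the genes described below are shown because ISRE and GAS are the sites of the pathway's own factors. RefSeq promoters (GRCm38.p6) were matched for 41 of the 47 genes, and the 250 bases before the start were searched on both strands for the ISRE core, a pair of GAAA with any 2 bases between them (a pair of TTTC on the other strand), and for the GAS core TTCNNNGAA, counting overlapping matches. The windows of the IFITM pair, of Bst2, of Psmb9 and of Isg15, a ubiquitin-like effector shown for comparison, are given from 5′ to 3′ with every ISRE or GAS match in capitals.
Ifitm3 (chr7:141010745-141010994, minus strand): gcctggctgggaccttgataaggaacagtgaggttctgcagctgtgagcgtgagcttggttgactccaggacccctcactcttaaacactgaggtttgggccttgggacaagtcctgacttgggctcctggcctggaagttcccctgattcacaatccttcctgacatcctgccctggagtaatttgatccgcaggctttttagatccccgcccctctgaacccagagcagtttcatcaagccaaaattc
Ifitm2 (chr7:140955962-140956211, minus strand): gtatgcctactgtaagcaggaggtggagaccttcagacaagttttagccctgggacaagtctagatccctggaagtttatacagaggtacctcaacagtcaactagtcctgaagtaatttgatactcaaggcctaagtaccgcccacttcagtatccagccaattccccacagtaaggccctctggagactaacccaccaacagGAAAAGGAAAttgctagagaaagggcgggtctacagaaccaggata
Bst2 (chr8:71537473-71537722, minus strand): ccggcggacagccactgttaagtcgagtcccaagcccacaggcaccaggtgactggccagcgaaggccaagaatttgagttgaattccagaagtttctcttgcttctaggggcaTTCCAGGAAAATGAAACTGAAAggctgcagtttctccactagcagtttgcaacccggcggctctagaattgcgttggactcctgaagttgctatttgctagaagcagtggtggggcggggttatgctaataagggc
Psmb9 (chr17:34187331-34187580, minus strand): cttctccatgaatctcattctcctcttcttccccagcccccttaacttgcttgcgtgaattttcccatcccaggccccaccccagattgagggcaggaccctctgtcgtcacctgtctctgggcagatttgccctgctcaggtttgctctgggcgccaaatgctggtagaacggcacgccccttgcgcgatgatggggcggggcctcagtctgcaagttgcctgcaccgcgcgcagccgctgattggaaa
Isg15 (chr4:156200819-156201068, minus strand): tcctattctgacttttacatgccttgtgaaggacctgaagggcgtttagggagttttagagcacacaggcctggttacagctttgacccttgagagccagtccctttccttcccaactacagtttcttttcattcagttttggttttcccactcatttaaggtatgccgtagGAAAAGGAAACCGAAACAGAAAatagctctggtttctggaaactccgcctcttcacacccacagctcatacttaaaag
The Bst2 window held 2 ISRE matches, GAAAATGAAA and GAAACTGAAA, and a GAS match, TTCCAGGAA, which all overlap in a single run. Isg15 held 3 overlapping ISRE matches and Ifitm2 held 1. The Ifitm2 window precedes a listed start that lies inside the gene coordinates given below, not at their far end. The windows of Ifitm3 and Psmb9 held no match to these letters. An ISRE match was present for 8 of the 41 genes (19.5%) and for 2.87% of the 9386 tested genes with a promoter, and a GAS match for 8 of the 41 (19.5%) and for 7.06% of those genes. The median log2 fold change (cKO minus WT) was -0.088 for the 8 tested genes with an ISRE match and -0.063 for the 31 without one. Bst2 is among the former and Ifitm3 among the latter, both picked for their low values. Over all tested genes with a promoter the medians were -0.024 with a match and -0.014 without.

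Most of the 47 genes differed little between the groups, as did most tested genes. Ifitm3 and Bst2 aside, groups that did not overlap were no more frequent among the tested ones than among all tested genes. Of the 43 genes above the filter, 24 had a log2 fold change (cKO minus WT) within 0.1 of zero. Of all 11596 tested genes, 6974 did. The range over the 43 genes was -0.79 to 0.19. The median was -0.065 over the 43 genes and -0.015 over all tested genes. It moved with single libraries, to -0.0054 without cKO replicate 1 and -0.11 without cKO replicate 2. Apart from Ifitm3 and Bst2, 0 of 41 passed the threshold by limma, where 0.0259% of all tested genes did (0.0172% lower and 0.00862% higher). An unadjusted p under 0.05 was seen for 6 of 41 (14.6%), 5 lower and 1 higher, against 12.3% of all tested genes (7.82% lower and 4.44% higher). Each of the 3 cKO values lay below each WT value for 4 of the 41 genes (9.76%), Ifitm2, Psmb9, Psmb8 and Irf1, and above for 1, Ifngr1, where the shares of all tested genes were 10.2% lower and 7.07% higher, or 17.2% in either direction. By direction alone, 30 of the 41 were lower and 11 higher, where 55.5% of all tested genes were lower.

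**Figure D1:**
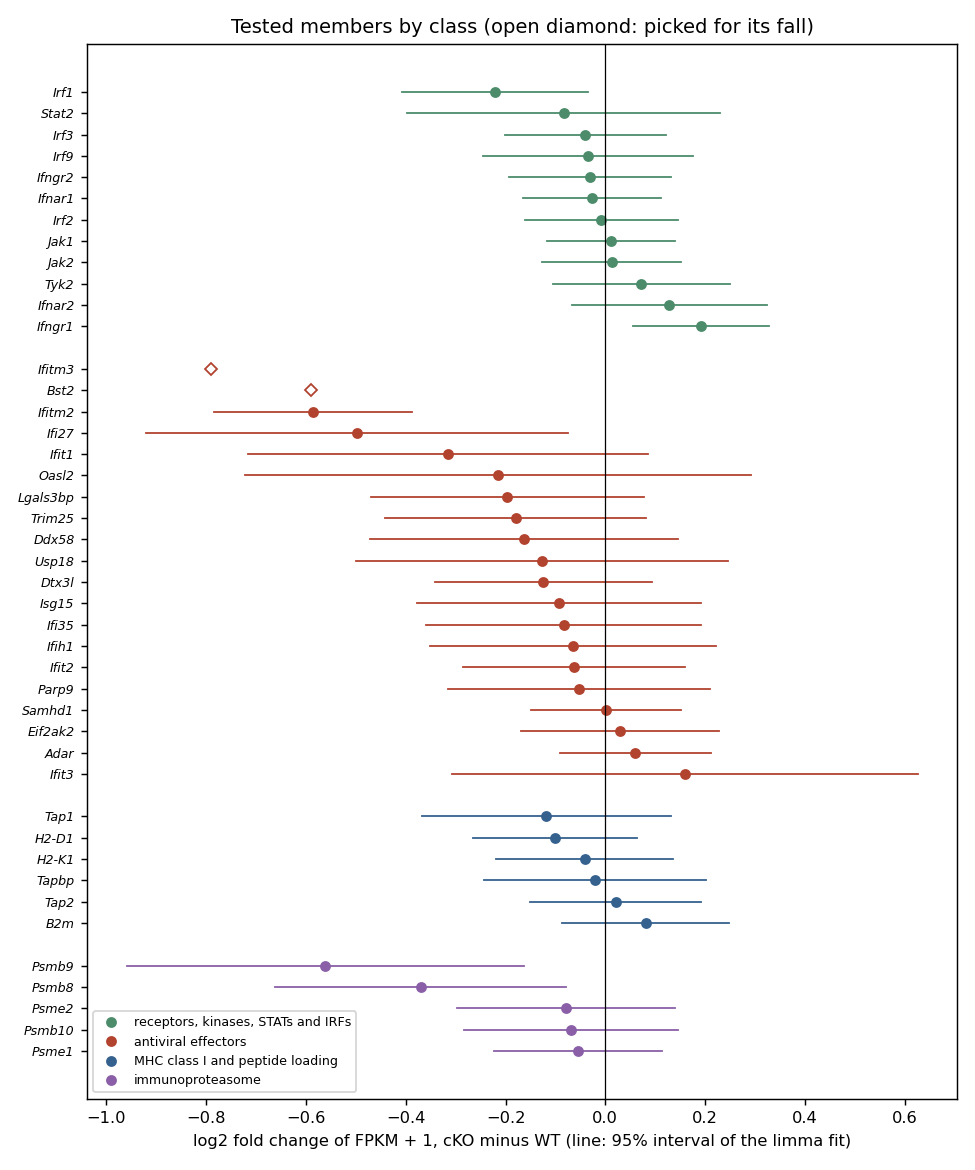
Log2 fold change of FPKM + 1 (horizontal axis, cKO minus WT) for the 43 tested genes in 4 classes; lines are 95% intervals of the limma fit, and open diamonds are the 2 genes picked for their low values. The lowest points are Ifitm3 at -0.79, Bst2 and Ifitm2 at -0.59 and Psmb9 at -0.56, and most others lie close to zero.

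Ifitm3 and Ifitm2, which encode small membrane proteins that hinder the fusion of virus and cell membranes, were the most abundant effectors. Ifitm3 (gene identifier 66141, chromosome 7, 141009590 to 141010744 in GRCm38) was at 55.5, 50.9 and 51.8 FPKM in cKO libraries and at 102.8, 84.3 and 89.2 FPKM in WT, 57.2% of the WT mean. The 3 cKO libraries lay within a narrow band and all WT libraries lay far above it. Ifitm3 was picked for its low cKO values, so no p is given for it.

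Ifitm2 (identifier 80876, chromosome 7, 140954837 to 140959686), whose lowest coordinate is 54.8 kb from that of Ifitm3, was not picked for its values. It was at 16.9, 20.3 and 17.2 FPKM in cKO libraries and at 30.3, 26.0 and 26.8 FPKM in WT. The groups did not overlap, and cKO stood at 65.5% of WT on average (log2 fold change -0.59, SE 0.087, adjusted p = 0.103 in limma), which missed the threshold. With library weights it passed, with a log2 fold change of -0.69 and an adjusted p of 0.016 in limma. Over the other alternatives the adjusted p was between 0.060 (replicate block) and 0.999 (against WT replicate 3 alone), and it was 0.921 with a log2 fold change of -0.40 when the Y-linked share was fitted as well. The ratio of Ifitm3 to Ifitm2 was 3.29, 2.51 and 3.01 in cKO and 3.40, 3.24 and 3.33 in WT, lower in cKO replicate 2 than elsewhere. The 2 transcripts are related. Of the 50-base windows of the Ifitm2 transcript, 3.30% occurred in Ifitm3, and 0% of its 100-base windows did (GENCODE vM21). The split of reads in the shared stretches is uncertain.

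Bst2 (identifier 69550, chromosome 8, 71534255 to 71537472) encodes tetherin, which holds budding virus particles at the cell surface. It was far less abundant, at 5.33, 5.25 and 4.80 FPKM in cKO libraries and at 8.99, 7.88 and 7.82 FPKM in WT, or 62.3% of the WT mean. As with Ifitm3, the cKO libraries were close to each other and the groups lay apart, and both values are a description since they chose the gene. WT replicate 3, in which Y-linked transcripts were found, was close to WT replicate 2 for Ifitm3, Ifitm2 and Bst2, and against it alone the log2 fold changes were -0.75, -0.54 and -0.53.

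**Figure D2:**
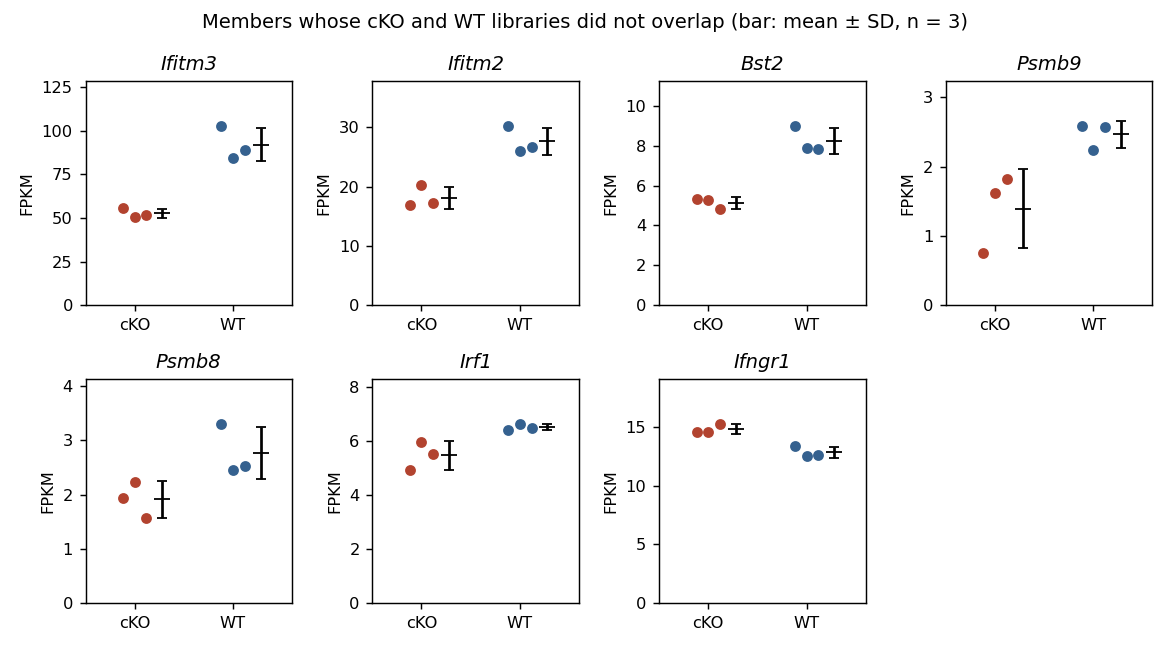
FPKM in each library (points, 3 libraries labelled cKO on the left and 3 WT on the right of each panel) with the mean ± SD beside them, for the 7 genes whose groups did not overlap. Ifitm3, Ifitm2, Bst2, Psmb9, Psmb8 and Irf1 were lower in all cKO libraries, and Ifngr1 was higher. Ifitm3 and Bst2 were picked for their low values. Of the 41 other tested members, 12.2% had groups that did not overlap, against 17.2% of all tested genes.

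None of the other tested effectors had groups that did not overlap. Of the 20 effectors tested, 16 had lower and 4 higher values in cKO, and the median log2 fold change was -0.13. Without Ifitm3 and Bst2 it was 14 of 18, with a median of -0.11, where 55.5% of all tested genes were lower. Ifi27, a membrane protein induced by interferon, had the next lowest p. It was at 19.1, 14.5 and 10.6 FPKM in cKO and at 24.3, 18.5 and 19.5 FPKM in WT (log2 fold change -0.50, SE 0.19, adjusted p = 0.334 in limma). Its groups overlapped, since cKO replicate 1 lay above WT replicate 2. Without cKO replicate 3 the log2 fold change was -0.29, and with the Y-linked share fitted it was -0.30.

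Several effectors were expressed near or below the filter, and are named here for that low level. Isg15 was at 1.00, 1.59 and 1.39 FPKM in cKO libraries and at 1.48, 1.32 and 1.61 FPKM in WT. Ifit1, which binds foreign RNA caps, was at 0.62, 1.48 and 0.82 FPKM in cKO and at 1.41, 1.76 and 1.12 FPKM in WT. Both overlapped between the groups. Usp18, which removes ISG15 from proteins and dampens the receptor, and Oasl2, of the oligoadenylate synthetase family, averaged 1.40 and 1.71 FPKM in cKO and 1.61 and 2.13 FPKM in WT. Dhx58, Parp14 and Xaf1 were below the filter, with 0.71, 0.85 and 0.51 FPKM in cKO and 0.84, 0.90 and 0.57 FPKM in WT.

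Among the remaining effectors, the RNA-editing enzyme Adar averaged 13.4 FPKM in cKO libraries and 12.8 FPKM in WT. The double-stranded RNA kinase Eif2ak2 averaged 11.6 FPKM in cKO and 11.4 FPKM in WT. Ifit2 averaged 10.8 FPKM in cKO and 11.3 FPKM in WT, and the nucleotide hydrolase Samhd1 7.49 FPKM in cKO and 7.48 FPKM in WT. Lgals3bp, a secreted glycoprotein, averaged 12.8 FPKM in cKO and 14.8 FPKM in WT. The RNA sensors Ddx58 (RIG-I) and Ifih1 (MDA5) averaged 4.39 and 1.10 FPKM in cKO and 5.00 and 1.20 FPKM in WT, and Trim25, the ubiquitin ligase that acts on RIG-I, 3.52 FPKM in cKO and 4.14 FPKM in WT. The partners Parp9 and Dtx3l averaged 4.54 and 2.73 FPKM in cKO and 4.77 and 3.07 FPKM in WT, and Ifi35 1.48 FPKM in cKO and 1.62 FPKM in WT. Ifit3 averaged 5.79 ± 2.30 FPKM in cKO and 4.89 ± 0.645 FPKM in WT (SD, n = 3 each). Its cKO mean rested on replicate 2, which was at 8.44 FPKM against 4.64 and 4.29 FPKM in the other cKO libraries. Ifit3 has a close copy, Ifit3b, which holds 31.7% of its 100-base windows, so its value is uncertain.

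The 17 effectors other than Ifitm3, Ifitm2 and Bst2, a grouping made after the values were seen, varied between libraries of the same label. WT replicate 1 was among the 3 highest libraries for 15 of the 17, cKO replicate 2 for 14 and WT replicate 2 for 13, while cKO replicate 1 and WT replicate 3 were for 4 each and cKO replicate 3 for 1. Their mean log2 level relative to the WT mean was -0.18, 0.058 and -0.21 in cKO replicates 1 to 3 and 0.086, 0.038 and -0.12 in WT replicates 1 to 3. cKO replicates 1 and 3 were the lowest libraries and WT replicate 1 was the highest. The median of all tested effectors was -0.0024 against WT replicate 3 alone, and 0.22 when the Y-linked share was fitted as well. Stat2, a transcription factor of the type I interferon response, was at 6.38, 8.68 and 6.62 FPKM in cKO and at 7.92, 8.91 and 6.33 FPKM in WT. It was highest in cKO replicate 2 and WT replicate 2, and the groups overlapped.

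**Figure D3:**
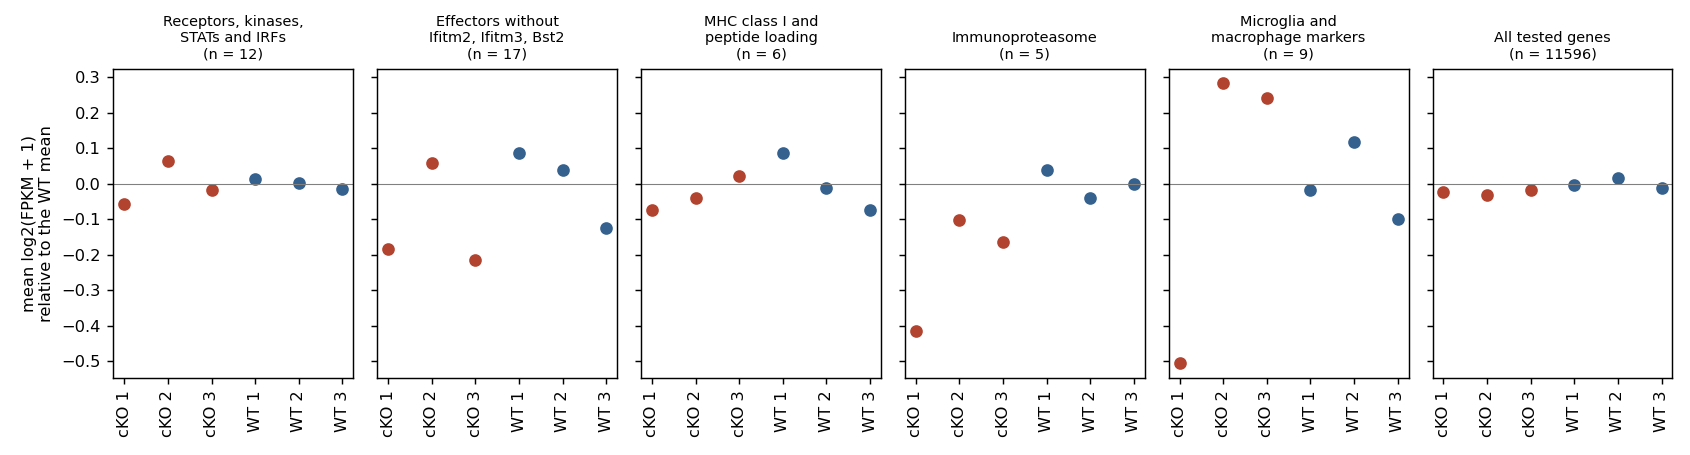
Mean log2(FPKM + 1) of each class relative to the WT mean (vertical axis) in the 3 libraries labelled cKO (red) and the 3 WT libraries (blue), with microglia and macrophage markers and all tested genes for comparison. The effectors without Ifitm2, Ifitm3 and Bst2 were high in cKO replicate 2 and low in WT replicate 3, and the immunoproteasome and the microglia markers were lowest in cKO replicate 1.

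Receptors, kinases and transcription factors of the pathway were present throughout and differed little. Of the 12 tested, 7 had lower and 5 higher values in cKO, and the median log2 fold change was -0.017, which turned to 0.0040 with quantile normalization. Jak1, the kinase shared by both receptor types, was the most abundant, at 31.6, 33.6 and 31.8 FPKM in cKO and at 32.6, 32.8 and 30.8 FPKM in WT (log2 fold change 0.011, 95% interval -0.12 to 0.14). The type I receptor chains Ifnar1 and Ifnar2 averaged 13.2 and 18.0 FPKM in cKO and 13.5 and 16.3 FPKM in WT. Jak2, Tyk2 and the second gamma receptor chain Ifngr2 averaged 14.5, 4.68 and 11.2 FPKM in cKO and 14.3, 4.40 and 11.5 FPKM in WT.

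Ifngr1, the ligand-binding chain of the interferon gamma receptor, was the exception on the high side, at 14.6, 14.6 and 15.3 FPKM in cKO libraries and at 13.4, 12.6 and 12.6 FPKM in WT. The groups did not overlap, but the difference was small and missed the threshold (log2 fold change 0.19, SE 0.060, adjusted p = 0.271 in limma). Irf1, a transcription factor induced by interferon gamma, lay on the low side at 4.91, 5.98 and 5.51 FPKM in cKO and at 6.43, 6.65 and 6.48 FPKM in WT. It missed the threshold as well (log2 fold change -0.22, SE 0.081, adjusted p = 0.333 in limma). A GAS match, TTCCCCGAA, lay 81 bases before a listed start of Irf1. Irf3, which is activated by virus sensors, averaged 17.5 FPKM in cKO and 18.0 FPKM in WT, Irf2, a repressor of interferon-driven transcription, 13.1 FPKM in cKO and 13.2 FPKM in WT, and Irf9, the DNA-binding partner of STAT2, 10.3 FPKM in cKO and 10.5 FPKM in WT. Irf7, the amplifier of type I interferon production, was below the filter, at 0.53, 0.80 and 0.68 FPKM in cKO and at 0.95, 1.17 and 0.58 FPKM in WT.

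MHC class I presents peptides to cytotoxic T cells and needs B2m, the light chain shared by all its forms. B2m was the most abundant of the 47 genes, at 93.8, 94.9 and 103.6 FPKM in cKO libraries and at 93.8, 98.4 and 84.3 FPKM in WT, and the groups overlapped (log2 fold change 0.081, 95% interval -0.087 to 0.25, adjusted p = 0.714 in limma). Its promoter window held 1 ISRE match. The heavy chain H2-K1 was at 60.2, 62.0 and 70.1 FPKM in cKO and at 70.9, 65.4 and 61.5 FPKM in WT. H2-D1, the other classical heavy chain, was at 29.8, 28.9 and 31.8 FPKM in cKO and at 35.1, 32.4 and 29.9 FPKM in WT (log2 fold change -0.10, adjusted p = 0.616 in limma). Both heavy chains overlapped between the groups. They belong to a family of close copies. Of the 50-base windows of H2-D1, 5.31% occurred in H2-K1, and 0% of its 100-base windows did. The split of reads in the shared stretches is uncertain. Tap1 and Tap2, the subunits of the peptide transporter, averaged 4.75 and 14.5 FPKM in cKO and 5.28 and 14.2 FPKM in WT, and Tapbp (tapasin), which holds MHC class I at the transporter, 19.6 FPKM in cKO and 20.01 FPKM in WT. The median log2 fold change of the 6 genes was -0.031, which turned to 0.015 without cKO replicate 1 and to 0.021 without WT replicate 1. In limma 0 of 6 passed, where 0.0259% of all tested genes did. An unadjusted p under 0.05 was seen for 0 of 6, against 12.3% of all tested genes. With only 6 genes these counts say little.

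The immunoproteasome replaces the 3 cutting subunits of the standard proteasome with Psmb8, Psmb9 and Psmb10, and is aided by the activator subunits Psme1 and Psme2. Its 3 cutting subunits did not move alike. Psmb9 (identifier 16912, chromosome 17, 34182030 to 34187330) was at 0.75, 1.62 and 1.82 FPKM in cKO libraries and at 2.59, 2.24 and 2.57 FPKM in WT. The groups did not overlap, and cKO replicate 1 was the lowest by far (log2 fold change -0.56, SE 0.17, adjusted p = 0.270 in limma). Without cKO replicate 1 the log2 fold change was -0.35. That library had the lowest sum of microglia and macrophage markers. cKO replicates 2 and 3 had the highest sums, and their Psmb9 values also lay below every WT value. A part of microglia in this was not tested. Psmb8 (identifier 16913, chromosome 17, 34198195 to 34201454) was at 1.93, 2.24 and 1.56 FPKM in cKO and at 3.31, 2.46 and 2.52 FPKM in WT. The groups lay apart by a small gap, the test missed the threshold (log2 fold change -0.37, SE 0.13, adjusted p = 0.303 in limma), and fitting the Y-linked share as well gave -0.078. Psmb10 was at 11.7, 13.8 and 15.3 FPKM in cKO and at 13.8, 15.0 and 13.9 FPKM in WT, and the groups overlapped.

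All 3 were minor beside the standard subunits that they replace. Psmb5, Psmb6 and Psmb7 averaged 113.7, 90.5 and 164.2 FPKM in cKO libraries and 116.9, 93.1 and 166.6 FPKM in WT. Psmb8 made up 1.80%, 1.92% and 1.27% of the summed FPKM of Psmb8 and Psmb5 in cKO and 2.75%, 2.18% and 2.00% in WT. Psmb9 made up 0.858%, 1.73% and 1.92% of the sum with Psmb6 in cKO and 2.85%, 2.36% and 2.55% in WT. Psmb10 held a larger share of the sum with Psmb7, 7.65% ± 0.84 in cKO and 7.90% ± 0.53 in WT (SD, n = 3 each), with overlapping groups. The activator subunits averaged 25.9 FPKM for Psme1 and 37.9 FPKM for Psme2 in cKO, and 26.9 and 39.9 FPKM in WT. Psme1, Psme2 and Irf9 lie on chromosome 14, 665.4, 674.3 and 690.9 kb from the end of Slc22a17, and stood at 96.4%, 94.96% and 97.9% of the WT mean.

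**Figure D4:**
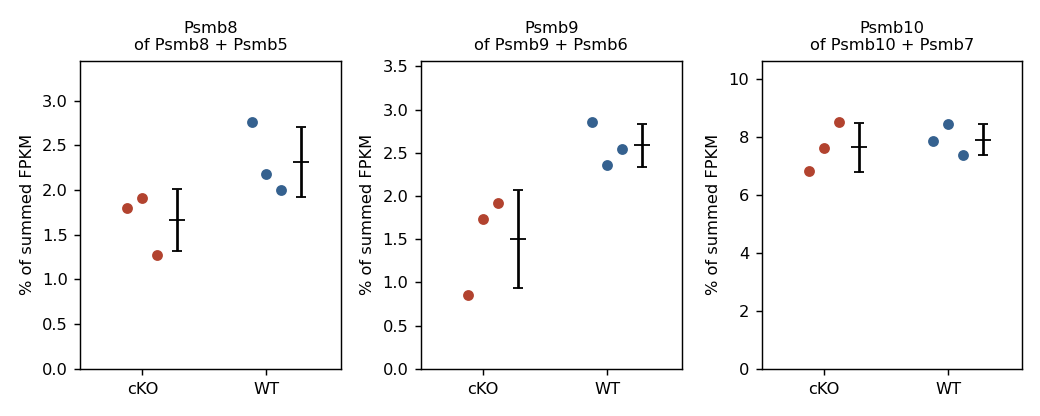
Share of each immunoproteasome subunit in the summed FPKM of that subunit and the standard subunit it replaces (vertical axis, percent), in the 3 libraries labelled cKO and the 3 WT libraries, with the mean ± SD beside the points. The shares of Psmb8 and Psmb9 were at most 1.92% in cKO and at least 2.00% in WT, and those of Psmb10 overlapped.

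The genes next to Ifitm3, Bst2 and Psmb9 are given as a description, since Ifitm3 and Bst2 were picked for their low values. Within 200 kb of Ifitm3, the 10 other tested genes had log2 fold changes of -0.24 to 0.11, with a median of -0.070, and Ifitm2, which was not picked, stood below all of them at -0.59. Around Bst2 the 18 other tested genes ranged from -0.56 to 0.52, and 6 of them were lower and 2 higher in every cKO library than in any WT library, where the shares of all tested genes were 10.2% lower and 7.07% higher. Psmb9, Tap1, Psmb8 and Tap2 lie together on chromosome 17, with lowest coordinates within 22.4 kb. Psmb9 and Tap1 are transcribed away from each other, and 225 of the 250 bases of the Psmb9 window printed above also lie in the Tap1 window. The ratio of Psmb9 to Tap1 was 0.15, 0.36 and 0.37 in cKO and 0.44, 0.39 and 0.60 in WT. The cKO values all lay below the WT values, narrowly so between cKO replicate 3 and WT replicate 2. Exons of Psmb9 and Tap1 overlap by 212 bases on opposite strands in GENCODE vM21, as do those of Parp9 and Dtx3l by 367. Exons of Adar overlap Chrnb2 by 1365 bases and those of Irf1 a model by 100, also on opposite strands. On their own strand, Ifitm2 and Ifnar2 share 268 and 315 exonic bases with a model, and Irf9 shares 123 with Rnf31. Jak1 and Psme1 overlap another gene by 4 and 7 bases. The strand setting of the counting is not stated in the labels, so reads of overlapping genes cannot be told apart.

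**Figure D5:**
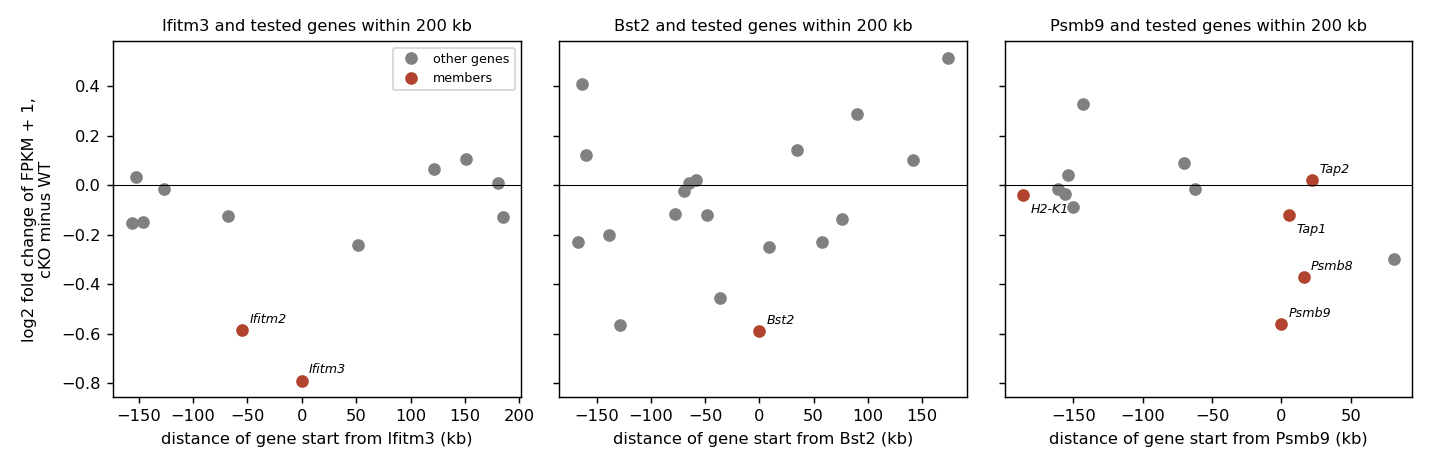
Log2 fold change of FPKM + 1 (vertical axis, cKO minus WT) against the distance of a gene's lowest coordinate from that of Ifitm3, Bst2 or Psmb9 (horizontal axis, kb), for tested genes within 200 kb. Members of the list are red and other genes are grey, and Ifitm2 lies below all grey points of its window (Ifitm3 and Bst2 were picked for their low values).

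A wider list of pathway genes, 140 of 160 of them in the table and 99 tested, was counted in the same way. Of the 99, 71 had lower and 28 higher values in cKO, where 55.5% of all tested genes were lower, and the median log2 fold change was -0.041, against -0.015 over all tested genes. In limma 0 of 99 passed, where 0.0259% of all tested genes did. Of the 99, 13 had an unadjusted p under 0.05, 10 lower and 3 higher (13.1%, against 12.3% of all tested genes). The lowest p belonged to Ifi30, a lysosomal thiol reductase of antigen processing, at 4.36, 5.29 and 4.97 FPKM in cKO and at 3.62, 3.16 and 3.70 FPKM in WT (log2 fold change 0.39, adjusted p = 0.235 in limma). Mov10, an RNA helicase that restricts retroviruses, was at 1.34, 1.71 and 1.55 FPKM in cKO and at 2.59, 2.26 and 2.16 FPKM in WT (log2 fold change -0.40, adjusted p = 0.235 in limma). Socs1, the feedback inhibitor of the JAK kinases, was at 1.81, 1.67 and 2.04 FPKM in cKO and at 2.55, 2.38 and 3.24 FPKM in WT (log2 fold change -0.39, adjusted p = 0.251 in limma). Rnaseh2c and Rnaseh2a, subunits of the nuclease that removes RNA from DNA, averaged 37.8 and 8.95 FPKM in cKO and 47.2 and 10.9 FPKM in WT. Ube2l6, the conjugating enzyme for ISG15, averaged 6.09 FPKM in cKO and 7.33 FPKM in WT. Cish, a feedback inhibitor of STAT5 signalling, and Tank, an adaptor of the kinase TBK1, averaged 1.77 and 44.3 FPKM in cKO and 1.19 and 38.0 FPKM in WT. When the Y-linked share was fitted as well, Cish and Tank turned to -0.034 and -0.074, from log2 fold changes of 0.34 and 0.22 without it. These 8 genes were chosen for their low p, so their non-overlapping groups are no further evidence, and none passed the threshold (adjusted p = 0.235 to 0.323 in limma for the 7 other than Tank, 0.334 for Tank). Over the whole wider list the groups did not overlap for 12 genes that were lower and 4 that were higher, 16.2% of the 99, against 17.2% of all tested genes.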

How the data were processed

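The authors deposited FPKM values with 2 decimals for 14327 genes in 6 libraries, per the file headers. Library data were assembled and analysed at BGISEQ, per the labels' protocols. Bowtie2 and GRCm38 (mm10) are named, per the submitters' processing notes. No source used here names the counting tool, annotation, strand setting or filters. FPKM holds no read totals. In a search for steps worth 1 fragment in low values, 53.2% to 62.0% were whole within 0.1 fragment at the best depth found, so whole reads could not be recovered and count models were not used.

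The tests ran on log2(FPKM + 1) for 11596 genes whose mean reached 1 FPKM (2731 left out), a scale that understates changes of low genes. Groups were compared with limma 3.58.1 (lmFit, eBayes with an intensity trend) in R 4.3.3, two-sided, adjusted by Benjamini-Hochberg over all tested genes. The fit was tested on simulated data. Figures used matplotlib 3.10.9. Coordinates and promoters are RefSeq GRCm38.p6, and transcript overlaps are GENCODE vM21.

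The members, the lists of other pathway genes and of cell type markers, and the alternatives were chosen with earlier results of these data known. Named in full are, in each class, members with non-overlapping groups, the 2 of highest mean and the 2 of lowest p, then Psmb5, Psmb6 and Psmb7, and the 8 pathway genes of lowest p. The rule gives the remaining members by ranges and counts. Their means were added for all of them, and values per library for Isg15, Ifit1, Ifit3, Stat2, Irf7 and Psmb10, after the values were seen. A gene of the wider list is not reported here.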

Additional observations from a re-analysis of the deposited data

How the results depend on the processing

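Genes past the threshold numbered 3 as reported, 0 without a filter, with quantile normalization, without the intensity trend, with the Y-linked share fitted as well, or against WT replicate 3 alone (a lone library assumed to vary like the others), 129 with library weights and 0 to 10 when single libraries were left out, with 0 without cKO replicate 1 or WT replicate 1. Among the 41 tested members not picked for their values the count stayed at 0, except for 1 (Ifitm2) with library weights. The labels do not say whether equal numbers mark pairs. Same-numbered cKO and WT libraries had correlations of -0.043, 0.30 and 0.26 between their deviations from the group means. The other combinations ran from -0.40 to 0.17, so pairing is neither shown nor excluded. With the replicate block 22 genes passed, and 0 of these members. Fitting the Y-linked share as well, the median log2 fold change was 0.13 for all members, 0.13 for receptors, kinases, STATs and IRFs, 0.22 for effectors and 0.12 for MHC class I, against -0.065, -0.017, -0.13 and -0.031 as reported. The effector median was -0.0024 against WT replicate 3 alone. The cause was not tested. The sign of some genes turned, Cish (0.34) and Tank (0.22) among them. In that fit it was 0.13 for H2-K1, 0.10 for H2-D1, 0.056 for Psme1, -0.034 for Cish and -0.074 for Tank. Against WT replicate 3 alone it was 0.055 for H2-K1 and 0.010 for H2-D1. With library weights it was -0.0065 for Jak1, 0.024 for Psmb6 and 0.013 for Psmb7, and with quantile normalization 0.0013 for Psmb7. Leaving out single libraries gave -0.017 to 0.028 for Jak1, -0.11 to 0.012 for H2-K1, -0.16 to 0.021 for Psme2, -0.12 to 0.018 for Psme1, -0.087 to 0.014 for Psmb5, -0.076 to 0.0012 for Psmb6 and -0.041 to 0.016 for Psmb7. Ifitm3, Ifitm2, Bst2, Psmb9, Psmb8, Irf1 and Ifngr1 kept their direction in every alternative run in which they were tested (a minimum mean of 5 FPKM left out Psmb8 and Psmb9). Their groups did not overlap, so leaving out libraries or changing the pseudocount, filter, trend, weights or block could not turn the direction. Only the normalizations and the fit with the Y-linked share could have turned it. Low genes moved with the pseudocount, Psmb9 to -0.86 and Psmb8 to -0.51 with 0.1, and to -0.23 and -0.17 with 5. The immunoproteasome median (-0.078) was 0.018 without cKO replicate 1. The values carry no depth, so precision comes only from the spread between 3 libraries a group.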
